A study of Mus musculus with 8 samples.

Results

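DNase-treated EVs of activated T cells were compared with EVs of non-activated T cells (NTEVs) in cultured mouse pancreatic cancer cells, to ask what remains of the response to activation once accessible DNA has been removed from the vesicles. EVs, extracellular vesicles, are membrane-bound particles that cells release. The comparison takes 4 of the 8 RNA sequencing libraries, 2 of cells given DNase-treated ATEVs and 2 of cells given NTEVs, and 15197 of 42687 genes, those that passed a filter on expression. The remaining 4 libraries, 2 of cells given untreated ATEVs and 2 of cells given PBS, entered the same fit and are given for context. The labels spell out NTEV only, and ATEVs are taken here, by contrast, as EVs of activated T cells.

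All groups share 1 clone of low immunogenicity from KPCY mice, and its genotype is labelled WT in every group. The alleles of KPCY mice include Trp53LSL-R172H/+, Pdx1-Cre and Rosa26YFP/YFP, so that Cre, driven by the Pdx1 promoter of the pancreatic lineage, switches on a mutant p53 and a yellow fluorescent reporter. DNase-treated ATEVs were ATEVs pretreated with Baseline-ZERO DNase and given at 15 µg/mL. Untreated ATEVs were likewise given at 15 µg/mL and NTEVs at 30 µg/mL, amounts that the labels tie to 5 µg/mL of EV-DNA for each. The exposure was repeated 8 times in every group. DNase-treated ATEVs and NTEVs therefore differed in T cell activation, in DNase pretreatment and in the amount of EVs, and these cannot be told apart in this comparison. A DNase applied to intact vesicles reaches DNA on their outside, and DNA inside the membrane is shielded.

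DNA that reaches the cytosol of a cell is detected by sensors such as cGAS, which signals through STING to interferon regulatory factors and NF-kB. Type I interferon and interferon gamma then raise antiviral genes and the genes that display peptides on class I molecules, whereas NF-kB, which inflammatory cytokines also activate without any DNA, raises chemokines that draw in neutrophils and monocytes. Tumour cells with little class I on their surface are poorly seen by CD8+ T cells.

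The libraries held 40345707 and 38260045 gene counts with DNase-treated ATEVs and 51749114 and 40115262 with NTEVs. Whether a group's libraries stem from separate cultures is not stated, and p-values therefore cover library-to-library spread that could be technical. Both groups held the keratins and junction genes of an epithelial line: 10 of 10 ductal and epithelial markers were tested, and they summed to 8532 and 9193 counts-per-million (CPM, scaled by TMM) with DNase-treated ATEVs and 9991 and 11237 with NTEVs. T cell markers summed to 11.9 and 9.14 CPM with DNase-treated ATEVs and 8.87 and 6.57 with NTEVs. Of 24 such markers 12 had no count in the 4 libraries, among them Cd8a, Cd3g and Gzmb, Cd3e had 2 counts in all, and Lck and Trac held most of the sum.

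Few genes passed the test between DNase-treated ATEVs and NTEVs. By edgeR's quasi-likelihood test with Benjamini-Hochberg adjustment, 7 of 15197 genes rose (0.0461%) and 1 fell (0.00658%) at an adjusted p under 0.05. The 7 were Ltbp2, Ehf, Lcn2, Pou2f2, Vnn3, Clca3b and D030025P21Rik, and the 1 was Zfpm1. At an unadjusted p under 0.05 there were 890 higher (5.86%) and 632 lower genes (4.16%), and both libraries of one group lay beyond both of the other for 3082 higher (20.3%) and 2785 lower genes (18.3%). In the same fit, untreated ATEVs against the same NTEVs gave 159 higher (1.05%) and 22 lower genes (0.145%), and DNase-treated against untreated ATEVs gave 13 higher (0.0855%) and 88 lower genes (0.579%). DESeq2 called more between DNase-treated ATEVs and NTEVs, 139 higher and 59 lower (1.30% of genes in either direction). The edgeR count of rises was 1 without the first DNase-treated library, 5 without the second, 1 without the first NTEV library and 2 without the second. The count of falls was 0 without any one of these 4.

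Ltbp2, a latent TGF-beta binding protein of the extracellular matrix, had 59.8 and 54.4 CPM with DNase-treated ATEVs against 2.31 and 2.39 with NTEVs. It stood at 22.03 and 26.7 CPM with untreated ATEVs and at 1.75 and 1.58 with PBS. Both DNase-treated libraries thus lay above all others, with the untreated ATEV libraries between them and the rest. The rise over NTEVs was 24.3-fold (95% interval 17.9 to 33.0, edgeR adjusted p = 0.000495), and Ltbp2 also passed against untreated ATEVs (2.34-fold, edgeR adjusted p = 0.0259). It was the single gene that passed under all 18 alternatives tried. D030025P21Rik, a gene model that overlaps Ltbp2 on the opposite strand, had 4.77 and 2.79 CPM with DNase-treated ATEVs and 0.0782 and 0.0747 with NTEVs (edgeR adjusted p = 0.0199). Because the strand setting of the counting is not given, its reads and those of Ltbp2 cannot be told apart.

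Lcn2, lipocalin 2, is a secreted protein of the acute phase response that withholds iron from bacteria. It had 61.7 and 40.3 CPM with DNase-treated ATEVs, 2.64 and 8.49 with untreated ATEVs, 0.0391 and 0.0249 with NTEVs, and 0.0583 and 0 with PBS. Both DNase-treated libraries lay above all others, and both untreated ATEV libraries lay above the NTEV and PBS libraries, which overlapped. Over both libraries this was 4171 counts with DNase-treated ATEVs against 3 with NTEVs, a CPM ratio of 1558 (95% counting interval 533 to 7560, which covers counting error only; edgeR adjusted p = 0.0199). Against untreated ATEVs the edgeR adjusted p was 0.0797. Clca3b, of a family of regulators of calcium-activated chloride channels, had 70.8 and 41.7 CPM with DNase-treated ATEVs against 1.70 and 1.17 with NTEVs, a 38.9-fold rise (95% interval 17.2 to 88.0, edgeR adjusted p = 0.0262). Untreated ATEVs gave 13.3 and 14.6 CPM. Both DNase-treated libraries lay above these too, but that difference did not pass (edgeR adjusted p = 0.143), and Clca3b has near relatives in the genome between which reads may be split.

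Pou2f2, the transcription factor Oct-2, had 28.1 and 30.0 CPM with DNase-treated ATEVs against 0.723 and 1.44 with NTEVs, a 27.1-fold rise (95% interval 13.8 to 53.2, edgeR adjusted p = 0.0199). Vnn3, a vanin related to enzymes that release pantothenate, had 20.1 and 17.9 CPM with DNase-treated ATEVs against 0.528 and 1.22 with NTEVs, a 22.02-fold rise (95% interval 11.5 to 42.0, edgeR adjusted p = 0.0199). Ehf, an ETS transcription factor of epithelia, had 29.5 and 39.3 CPM with DNase-treated ATEVs against 4.61 and 5.20 with NTEVs, a 7.02-fold rise (95% interval 4.86 to 10.1, edgeR adjusted p = 0.0199). Each separated all 4 libraries of the comparison, and each had also been high with untreated ATEVs. Those libraries held 12.9 and 16.9 CPM of Pou2f2, 12.1 and 15.2 of Vnn3, and 40.3 and 49.0 of Ehf. None of the 3 passed between DNase-treated and untreated ATEVs (edgeR adjusted p = 0.354 for Pou2f2, 0.680 for Vnn3 and 0.579 for Ehf).

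Zfpm1, which encodes FOG-1, a cofactor of GATA transcription factors, had 79.3 and 78.5 CPM with DNase-treated ATEVs against 182 and 199 with NTEVs. It stood at 136 and 125 CPM with untreated ATEVs and 124 and 112 with PBS. The DNase-treated libraries were the lowest of the 8 and the NTEV libraries the highest, so the contrast is also one of NTEVs standing above PBS. The level fell to 0.414 of that with NTEVs (95% interval 0.338 to 0.506, edgeR adjusted p = 0.0272). The call was lost under 9 of 18 alternatives, among them every omission of 1 library apart from the second ATEV library.

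**Figure D1:**
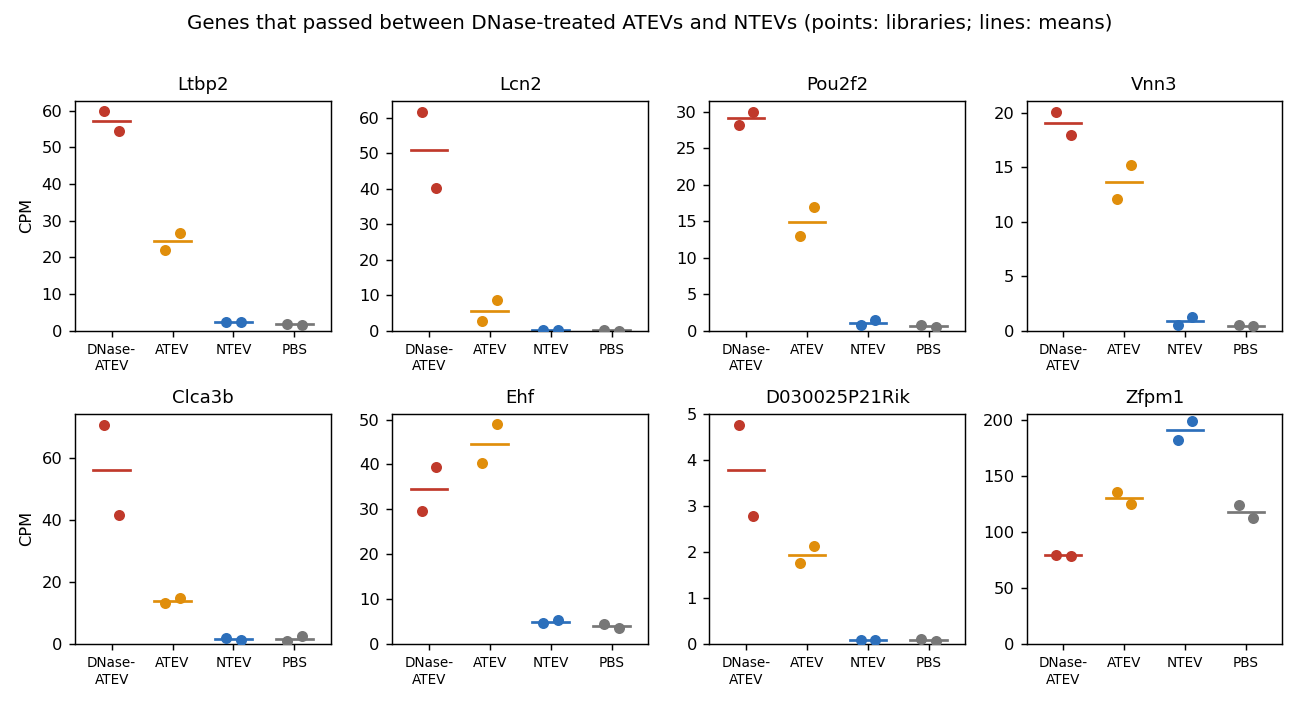
Level (CPM, linear axes that start at 0) of the 8 genes that passed between DNase-treated ATEVs and NTEVs, with 1 point for each library and a line at the mean of each group of 2. For the 7 rises the DNase-treated libraries lie above the NTEV and PBS libraries with untreated ATEVs also above these, and for Zfpm1 they lie below all others.

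Of the next genes by unadjusted p, 6 protein-coding genes were higher with DNase-treated ATEVs but did not pass. Among them were 2 chemokines that attract neutrophils, Cxcl5 and Cxcl3, and Tnip3, of a family that restrains NF-kB signalling. Tnip3 had 81.6 and 79.3 CPM with DNase-treated ATEVs against 19.3 and 22.4 with NTEVs, with an edgeR adjusted p of 0.0898. Nos2, the inducible nitric oxide synthase, had 10.6 and 3.14 CPM with DNase-treated ATEVs against 0 and 0.0249 with NTEVs, 563 counts against 1 (CPM ratio 631, 95% counting interval 113 to 24968, edgeR adjusted p = 0.0618). Its libraries did not overlap, and with untreated ATEVs it held 8.48 and 6.16 CPM. Syt7, a calcium sensor of exocytosis, was 3.71-fold higher (95% interval 2.55 to 5.38), with an edgeR adjusted p of 0.0861.

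The 11 protein-coding genes next in line among the lower ones, none of which passed, had log2 fold changes between -0.72 and -2.68 and edgeR adjusted p between 0.121 and 0.166. Dsp, desmoplakin of the desmosome, had 207 and 212 CPM with DNase-treated ATEVs against 371 and 402 with NTEVs, and Lad1, ladinin of the basement membrane, 247 and 225 CPM against 402 and 376 with NTEVs. Timp3, an inhibitor of metalloproteinases bound to the matrix, had 119 and 130 CPM with DNase-treated ATEVs against 330 and 270 with NTEVs. In these 3 genes the groups were apart by more than their spread between libraries. With PBS, Dsp stood at 237 and 241 CPM, Lad1 at 387 and 409, and Timp3 at 248 and 260. Untreated ATEVs gave 125 and 172 CPM of Timp3, near the DNase-treated values. Others were Fli1, Oprd1, Cep350, Ablim1, Homer2, Ahcyl2 and Plxna4. Homer2, a scaffold protein of postsynaptic and calcium signalling complexes, had 33.7 and 25.02 CPM with DNase-treated ATEVs, 10.4 and 9.47 with untreated ATEVs, and 65.5 and 59.8 with NTEVs, and it passed between DNase-treated and untreated ATEVs (2.96-fold higher with DNase, edgeR adjusted p = 0.0123).

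**Figure D2:**
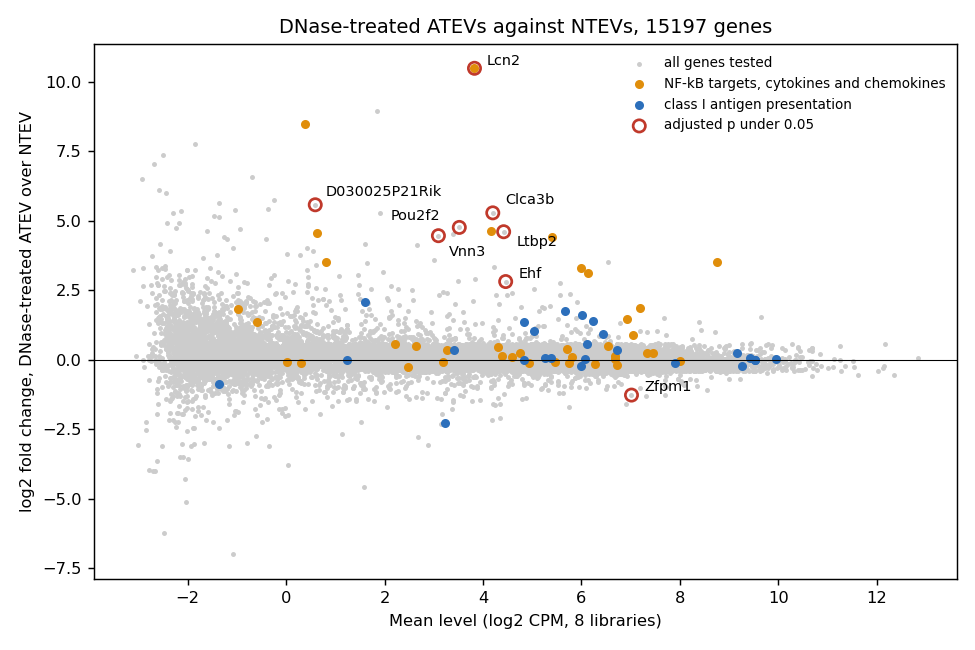
log2 fold change of DNase-treated ATEVs over NTEVs (vertical axis) against the mean level over the 8 libraries (log2 CPM, horizontal axis) for the 15197 genes tested, with class I antigen presentation genes in blue, NF-kB targets and chemokines in orange and the 8 genes with an adjusted p under 0.05 ringed. The blue genes of highest level lie along 0, and several orange genes, Lcn2 among them, lie far above it.

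Chemokines and other NF-kB targets were higher with DNase-treated ATEVs than with NTEVs in many cases, though 1 alone passed. From a list of cytokines, chemokines and other NF-kB targets 38 members were tested, of which 1 rose (Lcn2) and none fell by edgeR's test. At an unadjusted p under 0.05, 13 were higher and none lower (beside 5.86% and 4.16% of all genes), and DESeq2 called 11, all higher. The median log2 fold change was 0.37, beside 0.01 over all genes tested, and 16 members were higher in both libraries against 1 lower (42.1% and 2.63% of members, beside 20.3% and 18.3% of all genes). The count of 1 was 0 without the first DNase-treated library and without either NTEV library, and the median was 0.63 without the second NTEV library.

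Cxcl5 had 1548 and 636 CPM with DNase-treated ATEVs, 550 and 368 with untreated ATEVs, 106 and 86.9 with NTEVs, and 74.96 and 104 with PBS. Cxcl3 had 158 and 65.3 CPM with DNase-treated ATEVs, 57.4 and 34.1 with untreated ATEVs, 5.92 and 4.43 with NTEVs, and 4.35 and 9.03 with PBS. In both, the first DNase-treated library was more than 2 times the second, and even the lower one was above every other library of the series. Cxcl5 was 11.3-fold higher than with NTEVs (95% interval 5.42 to 23.6) and Cxcl3 21.5-fold higher (95% interval 8.49 to 54.5), both with an edgeR adjusted p of 0.0898. Ccl2, which attracts monocytes, had 52.1 and 31.4 CPM with DNase-treated ATEVs, 25.4 and 24.4 with untreated ATEVs, 1.80 and 1.54 with NTEVs, and 1.15 and 4.38 with PBS (24.9-fold higher than with NTEVs, 95% interval 9.23 to 67.1, edgeR adjusted p = 0.0939).

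Further members were picked out after their values were seen. Cxcl1, a neutrophil attractant, had 256 and 125 CPM with DNase-treated ATEVs, 31.1 and 32.7 with untreated ATEVs, and 14.7 and 24.6 with NTEVs. Ccl20, which attracts cells that carry CCR6, had 315 and 88.9 CPM with DNase-treated ATEVs, 35.8 and 37.3 with untreated ATEVs, and 19.1 and 27.3 with NTEVs. Csf1, the growth factor of macrophages, had 352 and 183 CPM with DNase-treated ATEVs, 178 and 203 with untreated ATEVs, and 72.0 and 76.8 with NTEVs. For Cxcl1 and Ccl20 the DNase-treated libraries stood apart from all others, and for Csf1 they overlapped the untreated ATEV libraries. None of the 3 passed against NTEVs (edgeR adjusted p = 0.240 for Cxcl1, 0.243 for Ccl20 and 0.134 for Csf1). Of the feedback inhibitors of NF-kB, Nfkbia and Tnfaip3 did not share this pattern, whereas Tnip3, given above, was higher but did not pass. Nfkbia had 46.2 and 52.6 CPM with DNase-treated ATEVs against 39.2 and 66.3 with NTEVs, and Tnfaip3 had 70.2 and 54.3 CPM with DNase-treated ATEVs against 58.2 and 58.8 with NTEVs, so that the libraries overlapped for both.

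Promoters from RefSeq, the 250 bases before and 50 after a gene's start in GRCm38.p6, were found for 7 of the 12 rises named by rule, of which 2 held a match to the kB consensus (Cxcl3 and Tnip3) and 2 a match to TTGCNNAA (Lcn2 and Vnn3). Among the higher genes, 3 with a match are printed as examples. Capitals mark the kB consensus (the NF-kB site) in Cxcl3 and Tnip3, where the capitals of Cxcl3 hold 2 overlapping matches, and TTGCNNAA, a core of C/EBP sites, in Lcn2.
Cxcl3: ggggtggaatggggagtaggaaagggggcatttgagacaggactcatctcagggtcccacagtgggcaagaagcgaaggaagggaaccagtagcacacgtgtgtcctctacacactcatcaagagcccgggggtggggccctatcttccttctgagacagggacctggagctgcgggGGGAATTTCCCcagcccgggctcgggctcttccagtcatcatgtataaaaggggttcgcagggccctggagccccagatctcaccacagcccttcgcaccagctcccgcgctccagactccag
Tnip3: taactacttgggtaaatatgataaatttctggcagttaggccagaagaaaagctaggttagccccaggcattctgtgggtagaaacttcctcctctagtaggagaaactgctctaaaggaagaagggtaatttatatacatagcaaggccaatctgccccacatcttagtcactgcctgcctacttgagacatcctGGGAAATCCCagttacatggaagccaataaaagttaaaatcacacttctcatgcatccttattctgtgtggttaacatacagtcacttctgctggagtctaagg
Lcn2: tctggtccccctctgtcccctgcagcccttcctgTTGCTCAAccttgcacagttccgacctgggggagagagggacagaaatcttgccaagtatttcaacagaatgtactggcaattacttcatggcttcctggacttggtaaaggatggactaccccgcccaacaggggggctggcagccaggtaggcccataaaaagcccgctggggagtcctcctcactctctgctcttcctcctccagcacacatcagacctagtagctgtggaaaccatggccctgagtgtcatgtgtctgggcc
These are chr5:90785851-90786150 on the plus strand, chr6:65590148-65590447 on the plus strand and chr2:32387690-32387989 on the minus strand. On either strand, the kB consensus was present in 13 of 30 promoters matched for the NF-kB list (43.3%) and in 5.14% of 27025 promoters, and TTGCNNAA in 6 of the 30 (20%) and in 12.2% of all. Such matches describe the sequence and show no binding.

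The class I chains H2-K1, H2-D1 and B2m were near the NTEV level with DNase-treated ATEVs. H2-K1, a class I heavy chain, had 220 and 260 CPM with DNase-treated ATEVs, 2000 and 2576 with untreated ATEVs, and 203 and 280 with NTEVs. H2-D1, another heavy chain, had 275 and 309 CPM with DNase-treated ATEVs and 258 and 324 with NTEVs. B2m, the light chain, had 149 and 238 CPM with DNase-treated ATEVs, 1520 and 1949 with untreated ATEVs, and 139 and 191 with NTEVs. The DNase-treated and NTEV libraries overlapped for all 3 genes, and the untreated ATEV libraries lay far above. The ratio of DNase-treated ATEVs to NTEVs was 0.993 for H2-K1 (95% interval 0.716 to 1.38), 1.00 for H2-D1 (0.758 to 1.33) and 1.17 for B2m (0.768 to 1.79), so differences of 2-fold lie outside these intervals. Reads of class I heavy chains may be shared among close copies.

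Among peptide-loading and immunoproteasome genes, Tap1 and Psmb8 were low with DNase-treated ATEVs but above the NTEV libraries. Tap1, of the peptide transporter, had 3.80 and 5.999 CPM with DNase-treated ATEVs, 347 and 242 with untreated ATEVs, and 1.31 and 2.49 with NTEVs. Psmb8, of the immunoproteasome, had 0.653 and 0.772 CPM with DNase-treated ATEVs, 316 and 195 with untreated ATEVs, and 0.195 and 0.274 with NTEVs. For both the DNase-treated libraries lay above the NTEV libraries without overlap and far below the untreated ATEV libraries. The ratio to NTEVs was 2.60 for Tap1 (95% interval 1.35 to 5.03, edgeR adjusted p = 0.409) and 3.06 for Psmb8 (1.64 to 5.68, edgeR adjusted p = 0.354), and neither passed. The other chain of the transporter, Tap2, had 7.16 and 9.63 CPM with DNase-treated ATEVs and 4.59 and 11.7 with NTEVs, with overlap (ratio 1.04, 95% interval 0.533 to 2.01). Nlrc5, the transactivator of class I genes, had 0.508 and 1.34 CPM with DNase-treated ATEVs, 151 and 109 with untreated ATEVs, and 0.137 and 0.821 with NTEVs, with overlap between the DNase-treated and NTEV libraries.

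The class I list had 25 genes tested, of which none rose or fell by edgeR's test. At an unadjusted p under 0.05, 6 were higher and none lower (beside 5.86% and 4.16% of all genes), and DESeq2 called 2. These 6 were Psmb8, Tap1, H2-Q4, Psme2, H2-T10 and Psmb9, so that they include loading and proteasome genes but not the main heavy chains. The median log2 fold change was 0.05, and the 6 became 2 without the second DNase-treated library and 3 without the first NTEV library. For class II presentation, 12 members were tested, but several had few or no counts in the 4 libraries compared and entered the test through their level with untreated ATEVs, so that little difference could have been found. Cd74, the class II invariant chain, had 7 counts with DNase-treated ATEVs and 3 with NTEVs (CPM ratio 2.62, 95% counting interval 0.597 to 15.7), against 401 and 483 CPM with untreated ATEVs. Ciita, the class II transactivator, and the class II chains H2-Ab1 and H2-Eb1, singled out for their low counts, had no count in any of the 4 libraries of DNase-treated ATEVs and NTEVs.

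**Figure D3:**
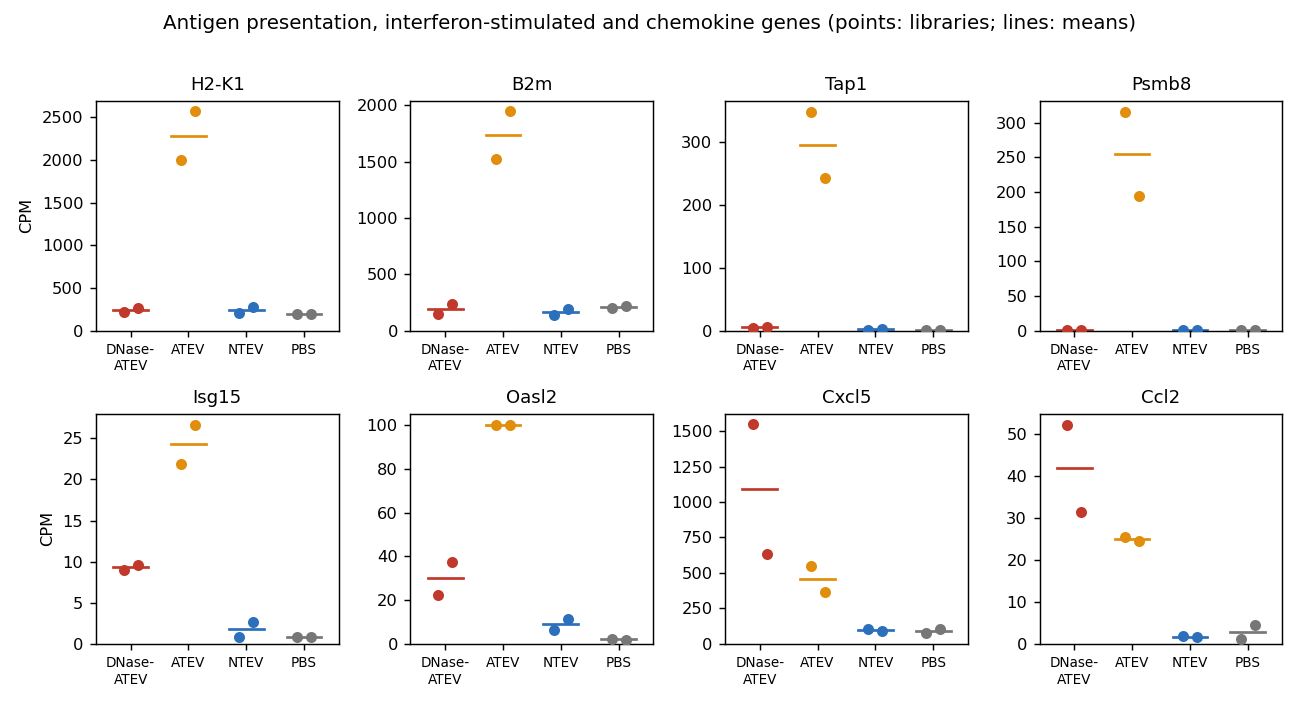
Level (CPM, linear axes that start at 0) of 4 class I presentation genes, 2 interferon-stimulated genes and 2 chemokines, with 1 point for each library and a line at the mean of each group of 2. With DNase-treated ATEVs the 4 class I genes shown lie near NTEVs and PBS on these axes, Isg15 and Oasl2 lie between NTEVs and untreated ATEVs, and Cxcl5 and Ccl2 lie above untreated ATEVs.

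Isg15 and Oasl2, of the type I interferon-stimulated genes, lay between NTEVs and untreated ATEVs. Isg15, a ubiquitin-like modifier, had 8.96 and 9.61 CPM with DNase-treated ATEVs, 21.9 and 26.7 with untreated ATEVs, 0.880 and 2.61 with NTEVs, and 0.835 and 0.821 with PBS. Oasl2, of the oligoadenylate synthetase family, had 22.4 and 37.6 CPM with DNase-treated ATEVs, 100.1 and 100.2 with untreated ATEVs, and 6.33 and 11.5 with NTEVs. Both stood above NTEVs and below untreated ATEVs with no overlap. Neither difference from untreated ATEVs passed (edgeR adjusted p = 0.278 for Isg15 and 0.106 for Oasl2). Isg15 was 5.36-fold higher than with NTEVs (95% interval 2.59 to 11.1, edgeR adjusted p = 0.224) and Oasl2 3.37-fold higher (1.94 to 5.85, edgeR adjusted p = 0.243). Mx2, of the antiviral Mx GTPase family and annotated as a polymorphic pseudogene, went against this order. It had 8.16 and 15.0 CPM with DNase-treated ATEVs, 4.001 and 5.89 with untreated ATEVs, and 1.37 and 2.64 with NTEVs. The rise over NTEVs was 5.80-fold (95% interval 2.85 to 11.8, edgeR adjusted p = 0.175), and the difference from untreated ATEVs did not pass (edgeR adjusted p = 0.320).

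Of 58 tested members of the type I list none passed by edgeR's test, 30 were higher and none lower at an unadjusted p under 0.05 (beside 5.86% and 4.16% of all genes), and DESeq2 called 16. Both DNase-treated libraries lay above both NTEV libraries for 42 members and below for none (72.4% of members, beside 20.3% of all genes). The median log2 fold change was 0.90. Against the same NTEVs, untreated ATEVs gave a median of 1.75 and 26 members that rose, and since both comparisons share the NTEV libraries, these values only stand side by side. The libraries of the second number were higher than the first in both groups: the median difference of the first from the second was -0.53 with DNase-treated ATEVs and -0.44 with NTEVs, on the log2(CPM + 0.5) scale. Within a number, the median of DNase-treated ATEVs minus NTEVs was 0.59 for the first libraries and 0.64 for the second. Without the second DNase-treated library the list's median was 0.51 with 14 higher members at an unadjusted p under 0.05, and without the first NTEV library 0.62 with 16.

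Of 39 tested genes induced by interferon gamma none passed by edgeR's test, 8 were higher and none lower at an unadjusted p under 0.05 (beside 5.86% and 4.16% of all genes), and DESeq2 called 4. A positive log2 fold change was found for 30, and 22 were higher without overlap against 2 lower (56.4% and 5.13% of members, beside 20.3% and 18.3% of all genes). The median log2 fold change was 0.80, beside 5.23 for untreated ATEVs over the same NTEVs, and it was 0.50 without the second DNase-treated library and 0.39 without the first NTEV library. Gbp3, a guanylate-binding protein, had 6.70 and 9.63 CPM with DNase-treated ATEVs, 301 and 114 with untreated ATEVs, and 1.41 and 1.82 with NTEVs. Casp4, the inflammatory caspase that senses lipopolysaccharide, had 48.5 and 62.9 CPM with DNase-treated ATEVs, 48.1 and 46.03 with untreated ATEVs, and 21.9 and 25.7 with NTEVs. Gbp3 was thus far below untreated ATEVs and Casp4 was not. Irf1, a transcription factor induced by interferon gamma, had 57.2 and 58.2 CPM with DNase-treated ATEVs, 393 and 192 with untreated ATEVs, and 36.3 and 50.6 with NTEVs. The DNase-treated libraries of Irf1 were above the NTEV libraries by less than 2-fold on average (1.33-fold, 95% interval 0.767 to 2.30), and the difference did not pass (edgeR adjusted p = 0.744).

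Promoters of B2m, whose libraries overlapped, and of Isg15, whose libraries did not, are printed for contrast. Capitals mark TTTCNNTTTC, a core of the interferon-stimulated response element (ISRE), in both, and in B2m also the kB consensus, and those in Isg15 hold 3 overlapping matches.
B2m: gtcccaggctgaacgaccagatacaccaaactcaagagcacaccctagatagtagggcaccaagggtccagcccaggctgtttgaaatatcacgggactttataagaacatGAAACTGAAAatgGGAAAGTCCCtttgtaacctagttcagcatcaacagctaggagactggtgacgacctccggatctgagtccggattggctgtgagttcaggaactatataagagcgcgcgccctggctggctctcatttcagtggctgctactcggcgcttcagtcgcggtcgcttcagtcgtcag
Isg15: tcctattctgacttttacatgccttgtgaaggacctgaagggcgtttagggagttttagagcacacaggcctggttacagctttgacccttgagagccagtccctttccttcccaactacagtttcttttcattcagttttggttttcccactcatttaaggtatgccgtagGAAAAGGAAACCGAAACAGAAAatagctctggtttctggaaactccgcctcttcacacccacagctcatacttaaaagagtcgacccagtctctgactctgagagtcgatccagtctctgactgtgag
These lie at chr2:122147437-122147736 on the plus strand and chr4:156200769-156201068 on the minus strand of GRCm38.p6. Read on either strand, TTTCNNTTTC was present in 20 of 46 promoters matched for the type I list (43.5%), in 5 of 23 for the class I list (21.7%) and in 3.99% of all. The kB consensus was present in 8 of the 23 class I promoters (34.8%).

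Among 27 tested genes of cytosolic nucleic acid sensing none passed by edgeR's test, DESeq2 called 2, and the median log2 fold change was 0.27. By unadjusted p under 0.05, 6 were higher and 1 was lower (beside 5.86% and 4.16% of all genes). The 6 were Zbp1, Mndal, Ifi203, Ifi211, Aim2 and Dhx58, which interferons induce in many mouse cells. Zbp1, a sensor of left-handed nucleic acids, had 68 counts with DNase-treated ATEVs and 3 with NTEVs (CPM ratio 25.4, 95% counting interval 8.33 to 126, edgeR adjusted p = 0.134), but only 0.774 and 0.896 CPM against 50.8 and 31.0 with untreated ATEVs. Mndal and Ifi203, of the family of AIM2-like receptors, were 4.36-fold (95% interval 2.23 to 8.52) and 2.85-fold higher (1.39 to 5.87), with edgeR adjusted p of 0.243 and 0.409. The DNA sensor Cgas had 1.99 and 1.47 CPM with DNase-treated ATEVs against 2.31 and 0.896 with NTEVs, and Tmem173, which encodes STING, had 8.62 and 15.3 CPM with DNase-treated ATEVs against 7.96 and 15.5 with NTEVs. Cgas and Tmem173, looked up for their place in the pathway, overlapped between the groups.

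Among checkpoint genes and ligands of T and NK cells, none of 18 passed by edgeR's test or DESeq2. At an unadjusted p under 0.05 there were 2 on the higher and 2 on the lower side (beside 5.86% and 4.16% of all genes). Cd274, which encodes PD-L1, had 29.9 and 60.5 CPM with DNase-treated ATEVs and 26.02 and 50.3 with NTEVs, so that the numbers of the libraries differed more than the groups (1.18-fold, 95% interval 0.614 to 2.28). Icam1, an adhesion molecule for T cells, was 2.12-fold higher (95% interval 1.17 to 3.81, edgeR adjusted p = 0.442). Cd47, which inhibits phagocytosis, was 1.35-fold higher (95% interval 1.11 to 1.64, edgeR adjusted p = 0.397).

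Epithelial genes were lower more often than higher. So were YAP and TEAD targets and cholesterol synthesis genes, with 47.1% and 45.8% of members lower without overlap and 17.6% and 12.5% higher. Of 38 tested epithelial and ductal genes 1 rose (Ehf) and none fell by edgeR's test. At an unadjusted p under 0.05, 1 was on the higher and 7 on the lower side (beside 5.86% and 4.16% of all genes). Without overlap, 19 were lower against 3 higher (50% and 7.89% of members, beside 18.3% and 20.3% of all genes). The median log2 fold change was -0.18. Besides Dsp the 7 included Krt7, a simple epithelial keratin, with 1436 and 1254 CPM with DNase-treated ATEVs against 1976 and 2095 with NTEVs, a difference that did not pass (edgeR adjusted p = 0.384). Of 28 matrix and basement membrane genes none passed by edgeR's test or DESeq2. Unadjusted p-values under 0.05 were found for 2 on the higher and 3 on the lower side (beside 5.86% and 4.16% of all genes). Without overlap, 7 were lower against 3 higher (25% and 10.7% of members, beside 18.3% and 20.3% of all genes). The median was -0.20, and it was 0.05 without the first DNase-treated library and -0.41 without the second. Hspg2, perlecan of basement membranes, had 623 and 515 CPM with DNase-treated ATEVs, 473 and 576 with untreated ATEVs, 817 and 1039 with NTEVs, and 359 and 351 with PBS, so that here NTEVs stood above all other groups. In bulk RNA a smaller share of cells with a given state and less RNA per cell cannot be told apart.

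**Figure D4:**
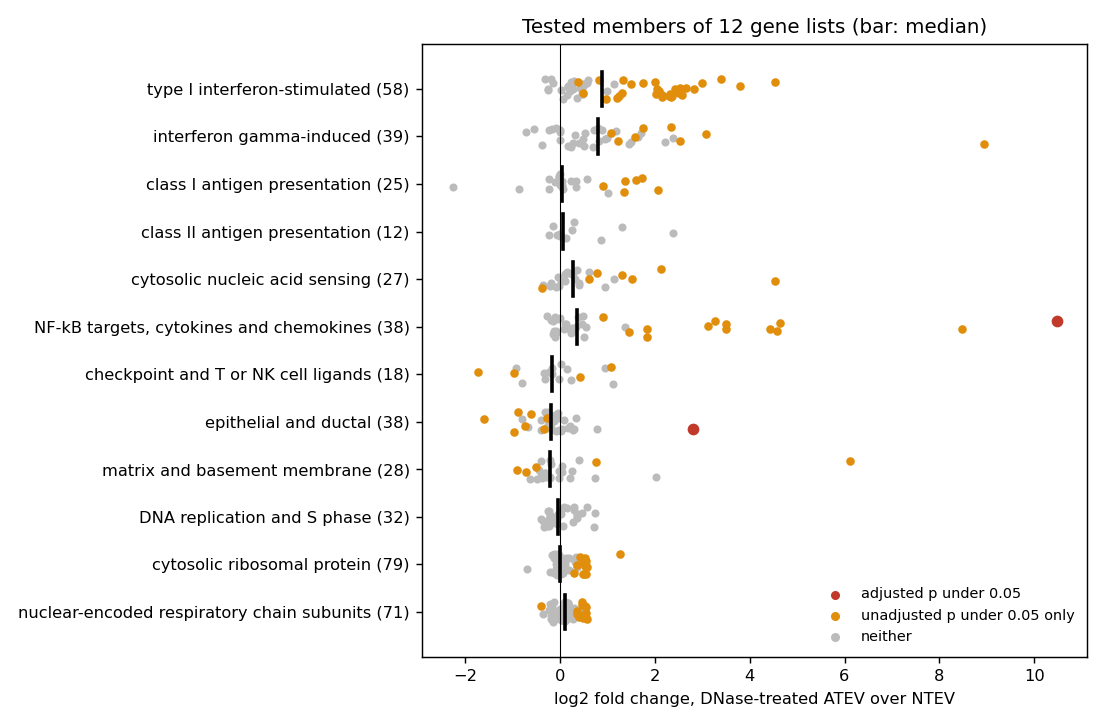
log2 fold change of DNase-treated ATEVs over NTEVs for the tested members of 12 gene lists, 1 point for each gene, with the number tested in parentheses, a black bar at the median and colours for the adjusted and unadjusted p. Type I interferon-stimulated genes have a median of 0.90 and class I genes of 0.05, and NF-kB targets reach the highest values.

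None of 32 S phase genes, 32 G2 and mitosis genes or 30 Myc and ribosome biogenesis genes had an unadjusted p under 0.05, and none was called by edgeR or DESeq2, with medians of -0.05, -0.11 and -0.02. The direction of these medians changed with the library left out, between -0.49 without the first DNase-treated library and 0.59 without the first NTEV library for S phase, and likewise between -0.43 and 0.40 for Myc and ribosome biogenesis. For G2 and mitosis genes the median was -0.44 without the second NTEV library and 0.29 without the first. For 28 ATF4 and amino acid stress genes the same counts were 0, and 26 had a positive log2 fold change with a median of 0.33. That median was 0.54 between the first libraries and -0.04 between the second (log2(CPM + 0.5)), so it rested on the first. Of 79 cytosolic ribosomal protein genes and of 71 nuclear-encoded respiratory chain subunits none passed by edgeR's test, 13 of each were higher at an unadjusted p under 0.05, DESeq2 called 1 of each, and their medians were 0.01 and 0.12. The 13 ribosomal genes, out of 79 and beside 5.86% of all genes, became 3 without the second DNase-treated library and 4 without the first NTEV library. The 13 respiratory genes became 6 without the second DNase-treated library, 7 without the first NTEV library and 4 without the second. Of the respiratory genes 31 were higher without overlap against 6 lower (43.7% and 8.45%, beside 20.3% and 18.3% of all genes). Of the ribosomal genes 16 were higher without overlap against 2 lower (20.3% and 2.53%). The ribosomal median was 0.21 between the first libraries and -0.19 between the second. Fas, a death receptor on the list of p53 targets, had 3.75 and 4.41 CPM with DNase-treated ATEVs, 13.1 and 7.94 with untreated ATEVs, and 0.352 and 0.572 with NTEVs (8.87-fold over NTEVs, 95% interval 4.47 to 17.6, edgeR adjusted p = 0.0959), alone at an unadjusted p under 0.05 on that list of 25. Lars2, the mitochondrial leucyl-tRNA synthetase, had 158 and 157 CPM with DNase-treated ATEVs, 171 and 207 with NTEVs, and 879 and 1000 with PBS, so that both EVs lay well below PBS and near each other (ratio 0.834, 95% interval 0.651 to 1.07).

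What remained of the ATEV response was measured over NTEVs, on genes chosen over PBS in libraries that do not enter the comparison. All libraries nonetheless share the fit's estimate of the spread. Untreated ATEVs over PBS gave 462 genes with an edgeR adjusted p under 0.05 and a log2 fold change of at least 1 (3.04% of those tested). All 7 genes that rose with DNase-treated ATEVs over NTEVs were among the 462, and none of the 462 fell. DESeq2 chose a wider set of 700 and called 70 of it higher, and the edgeR count of 7 was 1 without the first DNase-treated library, 1 without the first NTEV library, 2 without the second and 3 without the first PBS library. At an unadjusted p under 0.05, 126 of the 462 were higher and 5 lower (beside 5.86% and 4.16% of all genes). Both DNase-treated libraries lay above both NTEV libraries for 207 (44.8%, beside 20.3% of all genes) and below for 38 (8.23%, beside 18.3%). The median log2 fold change of the set was 0.37, with an upper quartile of 1.13, beside 2.83 for untreated ATEVs over PBS, the values that chose it. That median was between 0.21 and 0.63 when 1 of the 4 compared libraries was left out. For 129 the log2 fold change was at least 1 (27.9%, beside 5.05% of all genes). These values come from the fit, without the floor of 3 counts. Some of the 129 held few counts in the 4 libraries compared and passed the filter through their level with untreated ATEVs. Examples are BC023105, with 4 counts against 0 with NTEVs, and Serping1, with 4 against 1. For 172 the 95% interval lay below 1, a 2-fold difference (beside 10633 of all 15197 genes tested). Among the 316 protein-coding genes of the set, 175 were higher without overlap (55.4%, beside 19.0% of 12738 protein-coding genes tested), with a median of 0.58.

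The set was then divided by gene list. Medians over NTEVs and over PBS have unlike baselines. For all tested members of the type I list, the median log2 fold change over PBS was 0.58 with NTEVs, 1.69 with DNase-treated ATEVs and 2.42 with untreated ATEVs. In the same order these medians were 0.54, 1.32 and 5.69 for interferon gamma-induced genes. They were 0.13, 0.45 and 2.97 for class I genes, and 0.14, 0.62 and 0.43 for NF-kB targets. Of the set's 20 class I presentation genes, the median log2 fold change was 0.28 with DNase-treated ATEVs over NTEVs and 3.36 with untreated ATEVs over PBS. The 95% interval lay below a 2-fold difference for 9 (beside 10633 of all 15197 genes tested). By edgeR's test at an adjusted p under 0.05, 15 were lower with DNase-treated than with untreated ATEVs (beside 0.579% of all genes). Of the set's 43 type I interferon-stimulated genes the medians were 1.24 for DNase-treated ATEVs over NTEVs and 3.57 for untreated ATEVs over PBS. Without overlap 36 were higher (beside 44.8% of the 462 and 20.3% of all genes). By that test 7 were lower than with untreated ATEVs (beside 0.579% of all genes). Of the set's 32 interferon gamma-induced genes the medians were 0.95 for DNase-treated ATEVs over NTEVs and 5.86 for untreated ATEVs over PBS. By the same test 19 were lower than with untreated ATEVs (beside 0.579% of all genes). The set's 7 NF-kB targets were Lcn2, Cxcl3, Cxcl5, Ccl2, Ccl7, Csf1 and Nfkbiz. They had a median of 4.43 with DNase-treated ATEVs over NTEVs and of 2.78 with untreated ATEVs over PBS. All 7 were higher without overlap (beside 44.8% of the 462 and 20.3% of all genes). None was called lower than with untreated ATEVs (beside 0.579% of all genes). The ATEV libraries that chose these genes are also the reference for the counts lower than with untreated ATEVs. Those counts are therefore not independent of the choice. Differences between these lists were not tested.

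**Figure D5:**
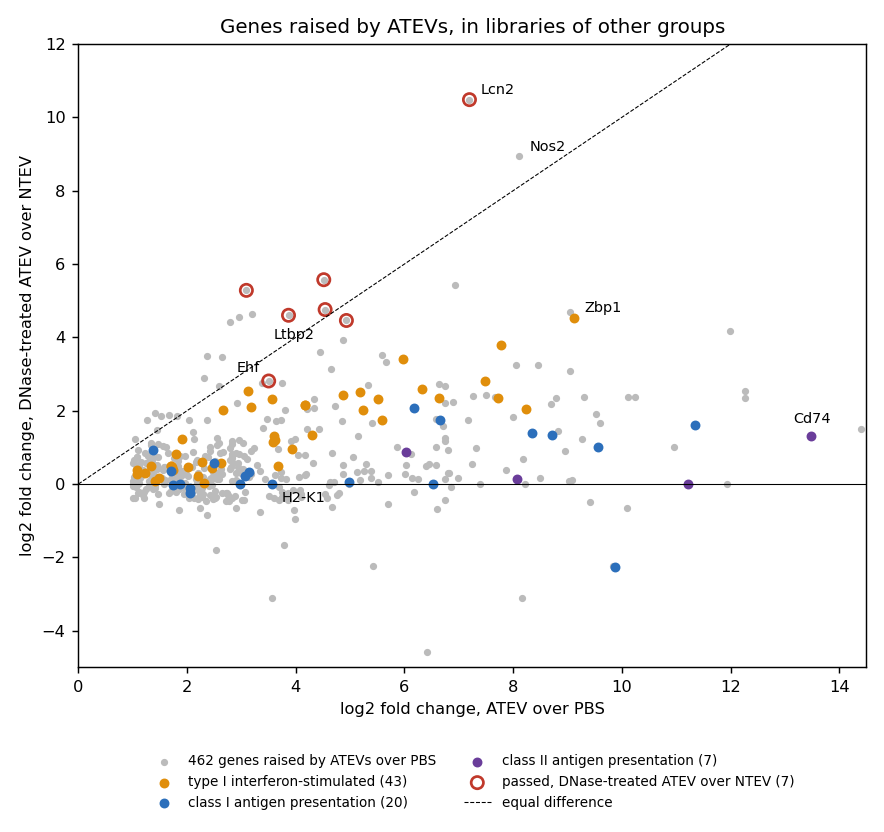
Log2 fold change of DNase-treated ATEVs over NTEVs (vertical axis) against that of untreated ATEVs over PBS (horizontal axis), from separate libraries, for the 462 genes raised by ATEVs, with 43 type I interferon-stimulated, 20 class I and 7 class II genes coloured and the 7 that passed over NTEVs ringed. Class I genes lie mostly near 0 on the vertical axis, interferon-stimulated genes mostly between 0 and the dashed line of equal differences, and Lcn2 and Ltbp2 above that line.

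Of the genes that untreated ATEVs lowered against PBS, 188 in number (1.24%), none passed between DNase-treated ATEVs and NTEVs by edgeR's test. By unadjusted p under 0.05, 13 were higher and 24 were lower (beside 5.86% and 4.16% of all genes). Without overlap, 49 were lower and 39 higher (26.1% and 20.7%, beside 18.3% and 20.3% of all genes). The median log2 fold change of the 188 was 0.03. Only 74 of the 188 are protein-coding. Of these 74, 41 were lower without overlap (55.4%, beside 20.5% of all protein-coding genes tested), with a median log2 fold change of -0.39.

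Markers of other cells gave no large sums in either group. Myeloid and B cell markers summed to 6.15 and 8.46 CPM with DNase-treated ATEVs and 4.63 and 6.35 with NTEVs, with 4 of 11 at 0, among them Adgre1 and Itgax. Fibroblast and endothelial markers summed to 10.8 and 15.9 CPM with DNase-treated ATEVs and 10.2 and 11.6 with NTEVs, with Dcn, Lum and Kdr at 0. Of 5 acinar markers 4 were at 0, and Cela1 alone had counts, 0.339 and 0.996 CPM with DNase-treated ATEVs and 0.371 and 0.846 with NTEVs. The groups overlapped in the myeloid and fibroblast sums, and both DNase-treated libraries were the higher ones in the T cell sum given above. That T cell sum was 11.2 and 12.3 CPM with PBS, which overlapped the DNase-treated libraries. The part of these cells in the differences was not tested.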

How the data were processed

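Libraries were stranded mRNA libraries from column-purified RNA, per the labels. The authors deposited raw counts, whole numbers of reads for 42687 Ensembl gene identifiers with 1 column for each of 8 libraries. The submitters' processing notes name TopHat, TopHat2 2.0.11, bcl2fastq 2.19, Cufflinks 2.1.1 and mm9, with neither roles nor order. How reads were counted, on which strand and against which annotation is not given in the sources used here, so overlapping, antisense and near-identical genes are uncertain. Symbols came from GENCODE M21 (42329 matched) and promoters from RefSeq, GRCm38.p6. No coordinates of the counted genes were used.

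Counts were analysed with edgeR 4.0.16 in R 4.3.3. Genes were filtered by expression in groups (15197 kept), scaled by TMM (a trimmed mean of log ratios) and fitted with a mean for each group over all 8 libraries (4 residual degrees of freedom, common biological coefficient of variation 0.226). Quasi-likelihood p-values are two-sided and adjusted by Benjamini-Hochberg over all genes tested, with a threshold of 0.05. For 2 libraries against 2, the smallest p of an exact permutation test is 0.333. CPM values are scaled by TMM, and fold changes come from the fit. Where a group held 1 to 3 counts, a CPM ratio with a 95% exact counting interval replaces the fold, and a group at 0 is set at a floor of 3 counts over its libraries. Reads carry no molecular identifiers, so such intervals cover counting error only. No replicate pair agreed within sampling noise, so each library counts as 1.

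The comparison, 27 gene lists and 5 marker lists were chosen with earlier results of these data known. Genes were named by rule: up to 12 rises and 12 falls that passed with no overlap between groups and a mean log2 CPM of 1 or more, filled up by smallest p with protein-coding genes. To these came up to 4 members of each list with the lowest p, and always Lars2, Isg15, Cd74, Irf1, Cd274, Nlrc5, B2m, Tap1, Psmb8, H2-D1 and H2-K1. Some items that the rule takes, and 1 allele of the line, are not reported here. Other genes named were chosen after their values were seen. Alternatives were DESeq2 1.42.0, other scalings, filters and sets of libraries, a block on the replicate number, and the omission of each library. The edgeR steps were first tested on simulated data, and the DESeq2 steps were not.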

Additional observations from a re-analysis of the deposited data

How the results depend on the processing

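The direction of all 8 calls between DNase-treated ATEVs and NTEVs was kept under every alternative that gave a value, but the number of calls was not stable. The 7 rises and 1 fall became 139 and 59 with DESeq2, 132 and 48 with no filter on low counts, 3 and 0 with the 6 EV-treated libraries alone, and 2 and 0 with the 4 libraries compared. The 7 calls among genes raised by ATEVs became 70 with DESeq2 and 88 with no filter, and no value could be given for fits that lack PBS or ATEV libraries. Omitting 1 library at a time gave 1 to 9 rises, 0 to 1 falls and 1 to 8 calls among the raised genes, with the library left alone in its group assumed to vary like the other groups. The omission of ATEV and PBS libraries was chosen after seeing the data. All 8 calls were kept with DESeq2, with no filter or a stricter filter and with either other scaling. Ltbp2 passed in all 18 alternatives (highest adjusted p 0.0234), and each of the 7 others was lost in 5 to 9 of them (highest adjusted p 0.269). The causes were not tested.

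The replicate numbers were not taken to pair the libraries, since the labels do not say what a number shares and only 2 pairs exist. Deviations of same-numbered libraries correlated across genes at 0.485 between DNase-treated ATEVs and NTEVs, 0.552 between DNase-treated and untreated ATEVs, and -0.141 between DNase-treated ATEVs and PBS. With a replicate block in the fit of all 8 libraries there were 19 rises and 5 falls, 17 of the rises among genes raised by ATEVs, and with the block in the fit of the 6 EV-treated libraries 458 and 335. All 8 calls were among those of either block fit. Of the 58 type I interferon-stimulated genes tested, where none passed without it, 3 rose with the block in the fit of 8 libraries and 25 in the fit of 6.

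Among 130 named genes under these alternatives, no gene that passed or had an unadjusted p under 0.05 changed sign, and 21 of 2333 values did so among the rest. Upper-quartile scaling moved the median log2 fold change of all genes to 0.05. Depth limits the genes near 0 with NTEVs, such as Lcn2 and Nos2, whose folds rest on 3 counts and 1 count.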

Other observations

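The genes given here were chosen after their values were seen. Cybb, the catalytic subunit of the phagocyte NADPH oxidase, had 29.4 and 19.3 CPM with DNase-treated ATEVs, 47.7 and 47.0 with untreated ATEVs, 1.43 and 3.48 with NTEVs, and 1.11 and 0.729 with PBS. Noxa1, an activator of the Nox1 oxidase, had 10.4 and 6.92 CPM with DNase-treated ATEVs, 1.75 and 3.22 with untreated ATEVs, and 0.508 and 1.07 with NTEVs. Nox1 itself had 124 counts with DNase-treated ATEVs and 3 with NTEVs (CPM ratio 46.3, 95% counting interval 15.5 to 228). The DNase-treated and NTEV libraries did not overlap, and none of the 3 passed (edgeR adjusted p = 0.0939 for Cybb, 0.134 for Noxa1 and 0.0692 for Nox1). Noxo1, the organizer of that oxidase, had 0.702 and 1.37 CPM with DNase-treated ATEVs and 0.371 and 1.39 with NTEVs, with overlap.

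Saa3, a serum amyloid A protein, had 406 counts with DNase-treated ATEVs against 1 with NTEVs (CPM ratio 455, 95% counting interval 81.2 to 18018, edgeR adjusted p = 0.121), and only 0.0460 and 0.205 CPM with untreated ATEVs against 6.90 and 3.01 with DNase-treated ATEVs. Ltf, lactotransferrin, had 39 counts with DNase-treated ATEVs and 0 with NTEVs, at least 14.6-fold higher in CPM. Slpi, an inhibitor of leukocyte proteases, had 85 counts with DNase-treated ATEVs and 2 with NTEVs (CPM ratio 47.6, 95% counting interval 12.8 to 400). Cebpd, a transcription factor of the acute phase response, had 110 and 71.4 CPM with DNase-treated ATEVs, 90.9 and 66.3 with untreated ATEVs, and 9.23 and 17.9 with NTEVs (edgeR adjusted p = 0.0986). Saa3, like Lcn2, was higher in both DNase-treated libraries than in both untreated ATEV libraries, and Cebpd was not. None of these 4 genes passed against NTEVs.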
